A study of Mus musculus with 41 samples.

Results

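Transcripts of 7 clock output factors were followed around the day in epidermal stem cells of mice on a high fat or a control diet. The genes were Dbp, Tef and Hlf, which encode activators of the PAR bZIP family, Nfil3, which encodes a bZIP repressor, and Ciart, Bhlhe40 and Bhlhe41, which encode repressors of the clock's activators. They were found by their symbols in the platform annotation and make up 7 of the 17097 genes measured. The 7 genes have 10 probe sets, and where a gene has several, its brightest on average is the one used. The mice were wild type C57B6/J females, 15 weeks old when killed. All had been fed as much as they would eat for 7 weeks, from 8 weeks of age, with high fat food or with its matched control food, and the make-up of either food is not given in the sources used here. Cells were collected every 4 h from ZT0 to ZT20, where zeitgeber time (ZT) counts hours from lights on. From the first time point to the last, the high fat diet had 3, 4, 2, 4, 4 and 4 arrays, 21 in all, and the control diet had 4, 3, 2, 3, 4 and 4 arrays, 20 in all. Arrays are numbered as replicates without a label tying each to its own mouse, and p-values therefore measure how far these arrays spread, which may be technical. Mice killed on the same day belonged to the same time point, so collection day and time point cannot be told apart. Whether high fat and control mice shared that day is not given in the sources used here, and if they did not, diet and day cannot be told apart within a time point either.

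The mammalian clock turns on a loop in which CLOCK and BMAL1 (encoded by Arntl) bind E-box sequences and drive their own repressors, among them the PER, CRY and CIART proteins. BHLHE40 and BHLHE41 bind the same E-boxes and repress there. DBP, TEF and HLF carry the rhythm onwards by activating genes with a D-box sequence, and NFIL3 represses through the same D-box, while Nfil3 itself is under the control of REV-ERB and ROR receptors at elements that contain the nuclear receptor core motif AGGTCA. In the epidermis the clock is known to time the division and differentiation of keratinocytes.

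The sequences just upstream of the members' start sites show which of these elements lie there. The 250 bases before each annotated start were taken from RefSeq, build GRCm38.p6, where 6 of the 7 genes matched with 7 windows. Both strands were searched for the E-box CACGTG, the D-boxes TTATGTAA and TTACGTAA, and the nuclear receptor core motif AGGTCA. The letters CACGTG and TTACGTAA read the same on both strands, and no matches overlapped. Windows that hold a match are printed 5′ to 3′ on the strand of the gene, with the matched letters in capitals.
Ciart, chr3:95882229-95882478, minus strand: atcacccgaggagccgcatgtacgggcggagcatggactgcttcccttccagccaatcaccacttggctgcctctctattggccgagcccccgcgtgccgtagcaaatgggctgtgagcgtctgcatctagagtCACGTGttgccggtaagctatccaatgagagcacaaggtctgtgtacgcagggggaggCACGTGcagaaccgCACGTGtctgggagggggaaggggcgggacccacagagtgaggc
Tef, first start, chr15:81802423-81802672, plus strand: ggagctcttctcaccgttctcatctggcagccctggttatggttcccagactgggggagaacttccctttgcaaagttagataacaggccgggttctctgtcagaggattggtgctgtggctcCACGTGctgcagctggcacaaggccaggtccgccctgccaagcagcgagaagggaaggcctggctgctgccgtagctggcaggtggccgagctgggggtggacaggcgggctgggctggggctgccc
Tef, second start, chr15:81811164-81811413, plus strand: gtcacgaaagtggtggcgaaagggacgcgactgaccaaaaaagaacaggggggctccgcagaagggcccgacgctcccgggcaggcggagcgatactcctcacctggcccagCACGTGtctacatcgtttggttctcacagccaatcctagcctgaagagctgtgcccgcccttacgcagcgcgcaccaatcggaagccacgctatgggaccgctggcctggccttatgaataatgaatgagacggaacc
Bhlhe41, chr6:145865421-145865670, minus strand: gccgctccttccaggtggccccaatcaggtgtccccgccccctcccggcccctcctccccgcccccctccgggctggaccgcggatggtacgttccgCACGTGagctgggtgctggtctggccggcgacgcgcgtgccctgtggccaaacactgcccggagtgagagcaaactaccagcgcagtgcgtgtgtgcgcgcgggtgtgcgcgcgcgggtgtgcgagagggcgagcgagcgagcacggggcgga
Nfil3, chr13:52981040-52981289, minus strand: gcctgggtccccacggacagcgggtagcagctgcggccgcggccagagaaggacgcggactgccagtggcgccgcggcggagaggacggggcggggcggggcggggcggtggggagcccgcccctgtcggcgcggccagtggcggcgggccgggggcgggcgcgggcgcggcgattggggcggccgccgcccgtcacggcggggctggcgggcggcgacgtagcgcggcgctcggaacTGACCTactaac

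Ciart held 3 E-boxes, beginning 116, 58 and 44 bases before its start. Of 32851 windows of the same length in the RefSeq table, 6.02% held at least 1 copy of CACGTG and 20 windows (0.0609%) held 3 or more. Each Tef start had 1 E-box, 127 and 138 bases upstream, and Bhlhe41 had 1, 153 bases upstream. The Nfil3 window held AGGTCA on the opposite strand, where it reads as TGACCT, 12 bases before the start, and 14.0% of all windows hold it. The D-box letters TTATGTAA were in 0.819% and TTACGTAA in 0.113% of all windows, and in none of the 7. The windows of Dbp (chr7:45704997-45705246, plus strand) and Hlf (chr11:90390918-90391167, minus strand) held none of the letters searched.

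Markers of basal keratinocytes were high. Krt5 (mean log2 value 12.7) and Krt14 (12.6), keratins of basal cells, and Col17a1 (12.7) were each above 99.9% of genes. The 6 bulge markers were split, with Krt15 (12.02), Nfatc1 (9.84) and Sox9 (9.34) above at least 86.1% of genes, and Cd34 (5.30), Lgr5 (5.73) and Lhx2 (5.84) above at most 28.5%. So were those of suprabasal cells, where Krt1 (12.6) stood level with the basal keratins, while Lor (6.42) was above 40.4% and Flg (4.32) above 1.61% of genes. H2-Ab1 (8.52), a marker of antigen-presenting cells, was above 76.1% of genes. Ptprc, the pan-leukocyte marker CD45, stood at 4.34, above 1.71% of genes. Array medians of the deposited log2 values lay between 6.41 and 6.44. Of the 4 arrays of ZT8, 3 stood apart. The mean level of 7 basal markers was 11.74 and 11.13 in replicates 1 and 2 of high fat ZT8 and 11.12 and 11.29 in those of control ZT8, against 11.68 to 11.93 over the 37 other arrays. The mean level of 7 suprabasal markers was 9.22 and 9.93 in high fat ZT8 and 9.81 and 9.64 in control ZT8, against 9.04 to 9.54 elsewhere. Without ZT8 the same members passed the time and rhythm tests in each diet and the test of diet by time, and the results that changed are given with their values.

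Each member was tested with limma in each diet for any difference among the 6 time points and for a 24 h cosine, with Benjamini-Hochberg adjustment over all 17097 genes and a threshold of 0.05. Of the 7 members, 6 differed between time points in the high fat diet, where 41.5% of all genes passed, and the same 6 did so in the control diet, where 43.9% passed. Over all genes, 25.9% did so in both diets. A 24 h cosine passed for 5 members in the high fat diet (11.2% of all genes) and for 4 in the control diet (6.66% of all genes). Dbp, Tef, Hlf and Ciart passed it in both diets, as 2.36% of all genes did. Nfil3 passed it in the high fat diet, and Bhlhe40 and Bhlhe41 passed it in neither.

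Dbp, the gene of the D-box binding activator whose transcript is among the strongest cycling in mouse liver, peaked at ZT12 in both diets. In high fat cells its log2 values were 9.31, 8.63, 9.04 and 9.49 at ZT12, against 6.91, 6.97 and 7.05 at ZT0, the lowest time point. In control cells they were 8.56, 8.66 and 8.69 at ZT12, against 6.71, 7.07, 6.72 and 6.73 at ZT20, the lowest time point. All arrays of the high time point lay above all arrays of the low time point in both diets. The highest group mean was 4.41-fold above the lowest in the high fat diet and 3.56-fold in the control diet. The amplitude of the cosine is the distance from its mean to its peak, in log2. For Dbp it was 1.04 ± 0.11 in high fat cells, peaking at 11.2 ± 0.39 h (SE, adjusted p = 1.64e-07), and 0.89 ± 0.11 in control cells, peaking at 11.05 ± 0.47 h (adjusted p = 3.45e-06). In the high fat diet the group means ran down in the order ZT12, ZT8, ZT16, ZT4, ZT20, ZT0, and in the control diet in the order ZT12, ZT8, ZT16, ZT0, ZT4, ZT20. Neighbours in these orders differed by more than 2 SE as far down as ZT16 and the group after it, except ZT12 and ZT8 in the control diet, and the 3 lowest groups of each diet did not.

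Tef, which encodes another PAR bZIP activator, also peaked at ZT12 in both diets. Its values at ZT12 were 10.23, 10.10, 10.06 and 10.09 in high fat cells and 9.95, 10.15 and 10.20 in control cells. At ZT0, its lowest time point in both diets, they were 7.92, 8.36 and 8.16 in high fat cells and 8.16, 8.45, 8.24 and 8.35 in control cells. No array at ZT12 came near any at ZT0. The fold between highest and lowest group mean was 3.92 in the high fat diet and 3.49 in the control diet. Its amplitude was 0.95 ± 0.051 in high fat cells, peaking at 12.4 ± 0.21 h (adjusted p = 1.99e-15), and 0.94 ± 0.052 in control cells, peaking at 12.5 ± 0.22 h (adjusted p = 5.44e-15). In both diets ZT12 stood above the pair ZT8 and ZT16, which did not differ by more than 2 SE, and these above ZT20 and ZT4. The dimmer Tef probe set, 1450184_PM_s_at, followed the brighter one, 1424175_PM_at, over the 12 group means (Pearson r = 0.98). Its amplitudes were larger, 1.19 ± 0.081 in the high fat diet and 1.23 ± 0.083 in the control diet, with peaks at 12.3 and 12.4 h.

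Hlf, the third PAR bZIP activator, moved over a narrower range. Its values at ZT12 were 10.20, 10.19, 10.13 and 10.21 in high fat cells and 10.18, 10.55 and 10.35 in control cells. At ZT4, its lowest time point, they were 9.42, 9.30, 9.55 and 9.33 in high fat cells and 9.45, 9.29 and 9.35 in control cells. The 2 time points did not overlap in either diet, and the folds between them were 1.72 in the high fat diet and 2.00 in the control diet. Between neighbours in the order of levels, only ZT0 over ZT4 in the high fat diet, and ZT12 over ZT16 and ZT8 over ZT4 in the control diet, differed by more than 2 SE. Its amplitude was 0.29 ± 0.060 in high fat cells, peaking at 13.8 ± 0.84 h (adjusted p = 0.00405), and 0.30 ± 0.062 in control cells, peaking at 14.7 ± 0.84 h (adjusted p = 0.00547). When arrays of the same diet and time point were treated as correlated, to allow for a shared collection day, Hlf no longer passed in either diet (adjusted p = 0.181 in the high fat and 0.0681 in the control diet). The dimmer Hlf probe set, 1434736_PM_at, correlated with the brighter one, 1434735_PM_at, at r = 0.81 over the 12 group means. It had amplitudes of 0.46 ± 0.063 in the high fat diet and 0.38 ± 0.064 in the control diet and peaks at 12.7 and 13.3 h.

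**Figure D1:**
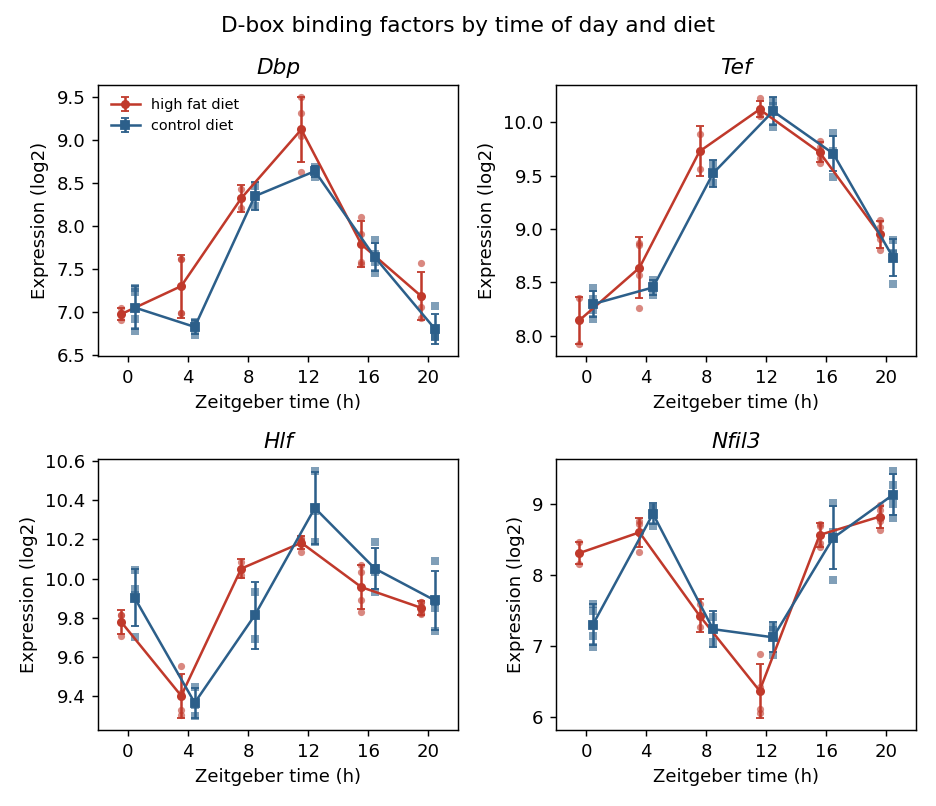
Log2 expression of Dbp, Tef, Hlf and Nfil3 against zeitgeber time in hours, with high fat arrays as red circles and control arrays as blue squares, each set a little to the side of its time point. Small points are arrays, and the joined large points with bars are group means ± SD (n = 2 to 4). Group means of Dbp, Tef and Hlf are highest at ZT12 in both diets, where that of Nfil3 is lowest. The control means of Nfil3 at ZT8 and ZT0 lie close above that at ZT12.

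Nfil3, the repressor at the D-box, had its lowest group mean at the time point where those of Dbp, Tef and Hlf were highest. In the control diet this low was shared. The Nfil3 means at ZT12 (7.13), ZT8 (7.24) and ZT0 (7.31) did not differ by more than 2 SE between neighbours in level. Its lowest values were at ZT12, with 6.43, 6.06, 6.89 and 6.12 in high fat cells and 7.22, 7.27 and 6.88 in control cells. Its highest were at ZT20, with 8.76, 8.64, 8.91 and 8.98 in high fat cells and 8.80, 9.46, 9.00 and 9.27 in control cells. The time points were fully apart in both diets, and the folds between them were 5.46 in the high fat diet and 4.02 in the control diet. The range of 2.45 (log2) in the high fat diet was wider than that of 99.9% of genes, and that of 2.01 in the control diet wider than that of 99.2%.

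The Nfil3 profiles parted at ZT0, when lights came on. In the high fat diet the values stayed high through ZT0 (8.31, 8.16 and 8.47) and ZT4 (8.60, 8.76, 8.32 and 8.73), and then fell by 1.17 ± 0.22 to ZT8 (adjusted p = 0.00139), a step at which 7.87% of all genes passed. Without high fat replicate 2 of ZT8 this fall was 1.01 ± 0.29 and did not pass (adjusted p = 0.127). In the control diet they fell by 1.83 ± 0.18 between ZT20 and ZT0 (7.50, 7.00, 7.14 and 7.59, adjusted p = 4.83e-08), where 14.4% of all genes passed. They rose again by 1.56 ± 0.20 to ZT4 (8.95, 8.95 and 8.69, adjusted p = 2.48e-06), where 13.8% of all genes passed. They then fell by 1.62 ± 0.24 to ZT8 (7.42 and 7.06, adjusted p = 7.06e-06), where 26.7% passed. Both control arrays and high fat replicate 2 of ZT8 had basal and suprabasal marker levels outside the range of the other time points. The part of this in the Nfil3 falls to ZT8 was not tested. The high groups were ZT20, ZT4, ZT16 and ZT0 in the high fat diet and ZT20, ZT4 and ZT16 in the control diet, and within each of these sets neighbours in level did not differ by more than 2 SE. Groups further apart in level did. Control ZT20 was above ZT16 by 0.61 ± 0.18 (adjusted p = 0.0414), where 6.23% of all genes passed. The high fat step from ZT20 to ZT0 was -0.51 ± 0.20 and did not pass (adjusted p = 0.11). The 24 h cosine of Nfil3 passed in high fat cells (amplitude 1.05 ± 0.22, peak 22.4 ± 0.77 h, adjusted p = 0.00568) but not in control cells (amplitude 0.60 ± 0.23, peak 20.2 ± 1.4 h, adjusted p = 0.236). The difference between these cosines did not pass (adjusted p = 0.429). The high fat call was lost without ZT12 (adjusted p = 0.437), on ranks (0.0617) and with arrays of a time point treated as correlated (0.12). The control call was gained with 12 h terms added (0.00492) and with the first residual component as a covariate (0.00312).

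Ciart, also called Chrono, encodes a repressor that binds CLOCK-BMAL1. It was highest at ZT12 in both diets, with 8.81, 8.74, 8.97 and 8.84 in high fat cells and 9.08, 8.73 and 8.71 in control cells. Its lowest group means were at ZT4 in high fat cells (7.69, 7.73, 7.42 and 7.55) and at ZT0 in control cells (7.34, 7.53, 7.42 and 7.40). In high fat cells the means at ZT20 (7.67), ZT0 (7.64) and ZT4 (7.60) did not differ by more than 2 SE between neighbours in level. The folds between highest and lowest group mean were 2.36 in the high fat diet and 2.68 in the control diet. The flanks of the peak lay differently. In high fat cells the values at ZT8 were 8.17 and 7.95 and those at ZT16 were 8.28, 8.69, 8.23 and 8.64. In control cells they were 8.46 and 8.53 at ZT8 and 7.74, 7.54, 7.80 and 7.99 at ZT16. High fat cells thus had the later flank above the earlier one, and control cells had the earlier flank above the later one, without overlap between the 2 time points in either diet. The earlier flank is ZT8. Both its control arrays and its high fat replicate 2 had basal and suprabasal marker levels outside the range of the other time points. The part of this in the Ciart values at ZT8 was not tested. Between ZT12 and ZT16 Ciart fell by 0.38 ± 0.099 in high fat cells (adjusted p = 0.00516) and by 1.07 ± 0.11 in control cells (adjusted p = 3.64e-07), a step at which 24.2% of all genes passed in the high fat diet and 2.46% in the control diet. The cosine amplitudes were 0.66 ± 0.069 in the high fat diet and 0.64 ± 0.073 in the control diet (adjusted p = 1.64e-07 and 7.3e-07). The fitted peaks were at 12.6 ± 0.41 h in the high fat diet and 10.6 ± 0.42 h in the control diet, a difference of 1.97 ± 0.59 h. The joint limma test of amplitude and peak between diets did not pass (adjusted p = 0.116).

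Bhlhe40, which encodes the bHLH repressor DEC1, had a sawtooth profile. Its highest group means were at ZT20, with 10.74, 10.76, 10.96 and 10.83 in high fat cells and 10.56, 10.92, 10.54 and 10.67 in control cells. Its lowest group means were at ZT8, with 10.43 and 9.15 in high fat cells and 9.27 and 9.10 in control cells. The array at 10.43, high fat replicate 1, had basal and suprabasal marker levels within the range of the other time points. The other ZT8 arrays, all lower in Bhlhe40, had marker levels outside that range. The part of this in the ZT8 means and in the falls to ZT8 was not tested. The 2 high fat arrays at ZT8 were far apart (SD 0.90), while the SD was 0.39 or less in every other Bhlhe40 group. ZT20 and ZT4 did not differ by more than 2 SE in either diet, nor did the lowest group and the next above it, ZT12 in the high fat diet and ZT0 in the control diet. In the high fat diet Bhlhe40 fell by 0.83 ± 0.19 between ZT20 and ZT0, rose by 0.64 ± 0.19 to ZT4 and fell by 0.85 ± 0.21 to ZT8 (adjusted p = 0.00717, 0.0264 and 0.0109). Over all genes 6.96%, 9.22% and 7.87% passed at these steps. The fall to ZT8 rested on 1 array, being 0.21 ± 0.21 without high fat replicate 2 of ZT8 (adjusted p = 0.78) and 1.49 ± 0.21 without replicate 1 (adjusted p = 1.52e-05), and without replicate 2 the lowest high fat group was ZT12 (9.94). The rise to ZT4 lost its call when any of 5 single arrays was left out (adjusted p up to 0.107). In the control diet it fell by 1.48 ± 0.17, rose by 1.48 ± 0.19 and fell by 1.49 ± 0.22 over the same steps (adjusted p = 5.07e-07, 2.46e-06 and 1.04e-05). The fold between highest and lowest group mean was 2.05 in the high fat diet and 2.81 in the control diet. Any-shape differences between time points passed in both diets (adjusted p = 7.4e-05 in the high fat and 5.68e-08 in the control diet), while the 24 h cosine passed in neither (0.332 and 0.425). With the first residual component as a covariate the cosine passed in both (adjusted p = 0.00115 in the high fat and 0.00283 in the control diet).

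Bhlhe41, which encodes the related repressor DEC2, gave no call on time of day. Its mean log2 value was 5.52, below the array medians, and its values over all arrays ran from 5.28 to 5.78. The group means spanned 0.21 in the high fat diet and 0.13 in the control diet, against medians of 0.29 and 0.31 over all genes. Any-shape adjusted p-values were 0.27 in the high fat and 0.609 in the control diet. Its other probe set (1457096_PM_at) had a mean of 5.51, correlated with the first (1421099_PM_at) at r = 0.42 over the 12 group means, and did not pass either (adjusted p = 0.343 and 0.248 among all probe sets). All groups next to each other in the order of levels overlapped.

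**Figure D2:**
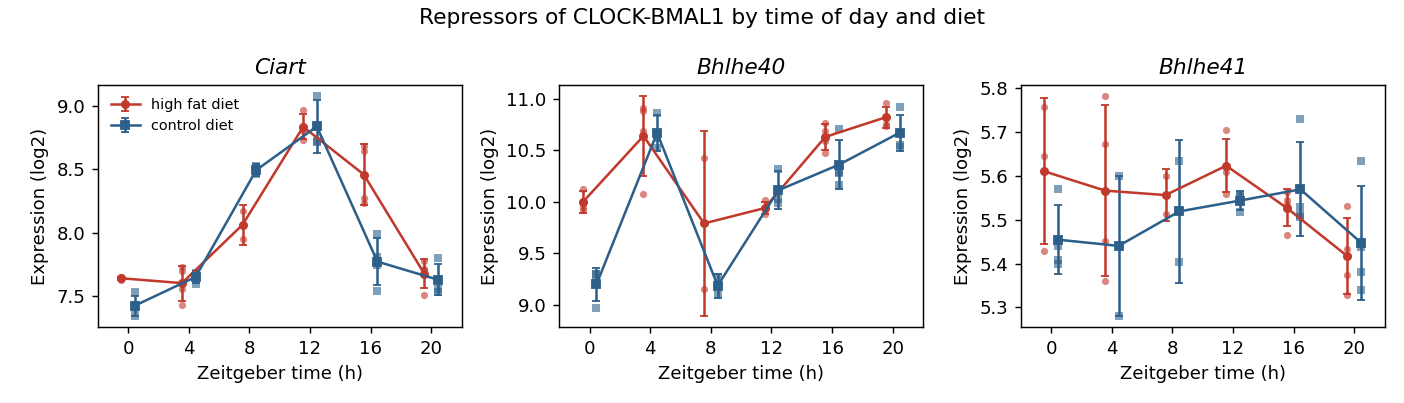
Log2 expression of Ciart, Bhlhe40 and Bhlhe41 against zeitgeber time in hours, high fat arrays as red circles and control arrays as blue squares. Small points are arrays, and joined points with bars are group means ± SD (n = 2 to 4). At ZT16 the 4 high fat arrays of Ciart lie above the 4 control arrays, and the 2 high fat arrays of Bhlhe40 at ZT8 lie far apart.

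Diet was then compared within each time point. The limma fit of 12 group means gave high fat minus control at every time point, the equally weighted average of these differences, and a test of whether the difference varied between time points. Since the samples are bulk RNA, fewer cells expressing a gene and less of its RNA per cell cannot be told apart. That last test passed for 3 of 7 members, Ciart (adjusted p = 0.000369), Nfil3 (0.00102) and Bhlhe40 (0.0491), where 19.0% of all genes passed. For Bhlhe40 this call was lost in 37 of 54 alternative settings, with adjusted p up to 0.177.

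At ZT0 2 of 7 members passed, both higher in the high fat diet, against 0.854% of all genes. Nfil3 was at 8.31 ± 0.16 in high fat cells and 7.31 ± 0.28 in control cells (SD, n = 3 and 4), a difference of 1.00 ± 0.20 (SE, log2) or 2.01-fold (adjusted p = 0.01). Bhlhe40 was at 9.92, 9.95 and 10.12 in high fat cells against 8.96, 9.22, 9.30 and 9.30 in control cells, a difference of 0.80 ± 0.19 or 1.74-fold (adjusted p = 0.0322). The arrays of the diets did not overlap for either gene, nor for Ciart, whose difference of 0.22 ± 0.11 did not pass (adjusted p = 0.389), and 13.4% of all genes had no overlap at ZT0. The Nfil3 call was lost without high fat replicate 3 of ZT0 (adjusted p = 0.0888). The Bhlhe40 call was lost without control replicate 1 (0.0544) or 3 (0.0996) or high fat replicate 1 (0.109), 2 (0.0885) or 3 (0.11) of ZT0. Of 6 leukocyte and Langerhans cell markers, H2-Aa was lower in the high fat diet at ZT0, and their mean level ran from 6.48 to 6.84 over high fat arrays and from 6.77 to 7.21 over control arrays. Of 6 bulge markers Nfatc1 was higher. The part of these markers in the members' differences was not tested.

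At ZT4 no member passed limma's adjusted threshold, where 0.386% of all genes did, and 1 had an unadjusted p under 0.05. That was Dbp, with 6.99, 7.62, 7.62 and 6.99 in high fat cells against 6.86, 6.74 and 6.89 in control cells. All high fat arrays were above all control arrays, as for 11.2% of genes in either direction, and the difference was 0.47 ± 0.18 (adjusted p = 0.27). At ZT8, with 2 arrays per diet, Ciart passed, where 8.34% of all genes did and 46.5% had no overlap. Its values given above were lower in both high fat arrays, by 1.35-fold (log2 difference -0.43 ± 0.14, adjusted p = 0.0488). The call was lost in 36 of 53 alternative settings (adjusted p up to 0.348), among them the leaving out of any of 29 single arrays. Bhlhe40 at ZT8 differed by 0.61 ± 0.24 (adjusted p = 0.122), and by 1.24 (adjusted p = 0.00063) without high fat replicate 2 of ZT8, and by -0.03 (adjusted p = 0.961) without replicate 1. Hlf was higher in both high fat arrays of ZT8 than in both control arrays, by 0.24 ± 0.11, and did not pass (adjusted p = 0.188). Its dimmer probe set gave 0.08 ± 0.21. Ciart, Bhlhe40 and Hlf were the 3 members with an unadjusted p under 0.05 at ZT8. At ZT8, 2 of 6 leukocyte markers (Cd3e, H2-Aa) were higher and 2 of 6 bulge markers (Lhx2, Nfatc1), 2 of 7 suprabasal markers (Dsg1a, Sbsn) and 2 of 4 hair matrix keratins (Krt25, Krt71) lower in the high fat diet, and their part was not tested.

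At ZT12 Nfil3 passed in the opposite direction to ZT0, where 18.0% of all genes passed. It was at 6.37 ± 0.38 in high fat cells and 7.13 ± 0.21 in control cells (SD, n = 4 and 3), 1.68-fold lower (log2 difference -0.75 ± 0.20, adjusted p = 0.00834), although 1 high fat array, at 6.89, lay just inside the control range. At ZT12 28.2% of all genes had no overlap between diets, Bhlhe41 among them (5.56 to 5.70 in high fat cells and 5.52 to 5.56 in control cells, adjusted p = 0.57). Without control replicate 2 of ZT12 the adjusted p for Nfil3 was 0.0515, and with the arrays of ZT12 alone it was 0.0579. The 3 members with an unadjusted p under 0.05 at ZT12 were Nfil3, Dbp and Hlf (-0.18 ± 0.085, adjusted p = 0.145). Dbp was higher by 0.48 ± 0.18 at ZT12 and did not pass (adjusted p = 0.0567), with 1 high fat array, replicate 2 at 8.63, inside the control range. It passed without that array (0.65, adjusted p = 0.0112) and without high fat replicate 2 of ZT20 (0.48, adjusted p = 0.0459). Of 6 clock activators and ROR or REV-ERB receptors measured, Arntl (-1.11 ± 0.31, adjusted p = 0.0112) and Rora (-0.24 ± 0.078, adjusted p = 0.0282) were lower at ZT12, and Npas2 was higher (0.39 ± 0.079, adjusted p = 0.00101). Of 5 period and cryptochrome genes, Per2 (-0.66 ± 0.14, adjusted p = 0.00179) and Cry2 (-0.38 ± 0.12, adjusted p = 0.0319) were lower. At ZT12 4 of 6 leukocyte and Langerhans cell markers (Cd207, Cd74, H2-Aa, H2-Ab1) were higher, with a mean level of 6.99 to 7.29 over high fat arrays and 6.71 to 6.80 over control arrays. Of 6 bulge markers 3 were higher and 1 lower, 2 of 7 suprabasal markers were higher and 2 of 5 melanocyte markers lower, and their part in the differences of Nfil3 and Dbp was not tested.

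At ZT16 Ciart passed, where 1.24% of all genes did. Its values of 8.23 to 8.69 in high fat cells were all above those of 7.54 to 7.99 in control cells, and 8.64% of all genes had no overlap. The difference was 0.69 ± 0.099, or 1.61-fold (adjusted p = 0.000181), and it kept its call in 53 of 54 alternative settings. The exception was the fit on the arrays of ZT16 alone (adjusted p = 0.0862). Of the cell type markers, Tek, an endothelial receptor, was lower at ZT16, and the leukocyte list had a mean level of 6.54 to 6.88 over high fat arrays and 6.75 to 6.92 over control arrays. At ZT20 no member passed limma's adjusted threshold (0.702% of all genes did), and 1, Dbp, had an unadjusted p under 0.05 (0.38 ± 0.16, adjusted p = 0.27).

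Averaged over the 6 time points, Bhlhe40 passed, where 7.59% of all genes did. Its average was 10.30 in high fat cells and 10.03 in control cells, a difference of 0.27 ± 0.079 or 1.21-fold (adjusted p = 0.0312). Dbp averaged 7.78 in high fat cells and 7.55 in control cells, a difference of 0.23 ± 0.075 just outside the threshold (adjusted p = 0.0547), and it passed when any of 10 single arrays was left out (adjusted p between 0.0215 and 0.0497). The differences of the other members averaged between -0.03 and 0.08 (log2, high fat minus control), and the interval (95%) for Tef was -0.02 to 0.18 and that for Hlf -0.10 to 0.05. The dimmer Hlf probe set averaged 0.07 ± 0.067. At ZT12 it gave 0.20 ± 0.16, against -0.18 ± 0.085 with the brighter one. For Bhlhe41 at ZT0 the probe sets gave 0.16 ± 0.088 (brighter) and -0.11 ± 0.075 (dimmer). None of these values passed. The Bhlhe40 average was lost without high fat replicate 1 of ZT8 (0.16, adjusted p = 0.124), control replicate 2 of ZT8 (0.26, adjusted p = 0.0809) or control replicate 2 of ZT12 (0.26, adjusted p = 0.0517), and without ZT0 (0.16, adjusted p = 0.27) or ZT8 (0.20, adjusted p = 0.0521). Without ZT8 the averages of Ciart (0.18, against 0.08 with it, adjusted p = 0.0222) and Dbp (0.28, adjusted p = 0.0334) passed.

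**Figure D3:**
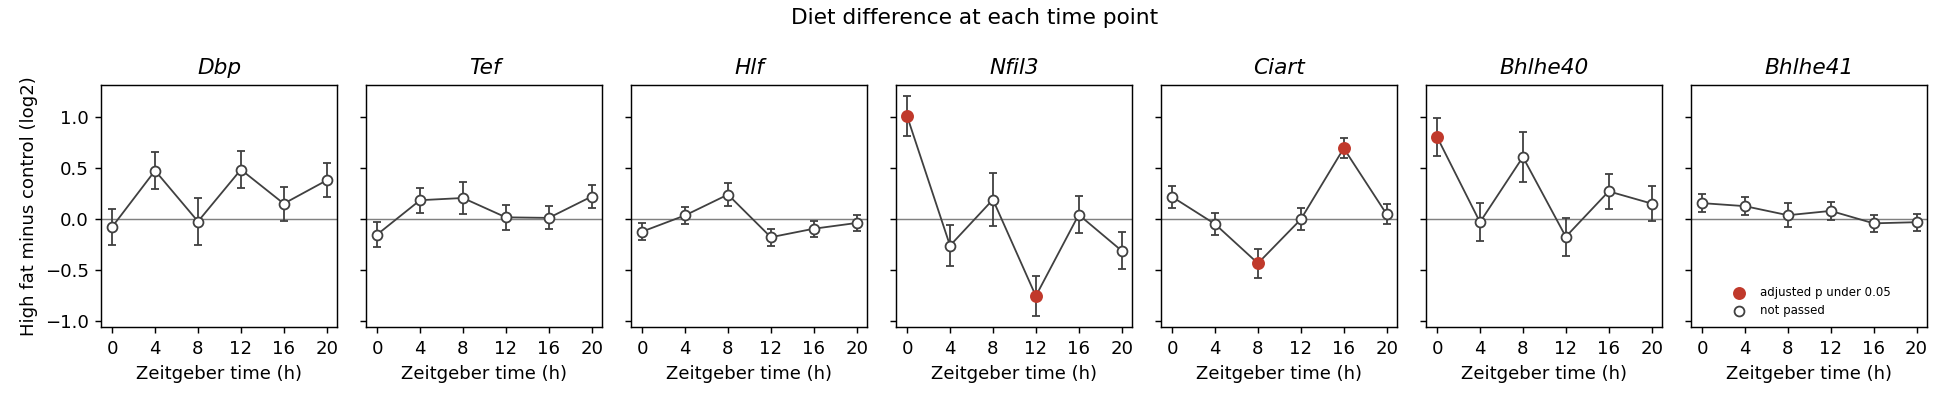
High fat minus control (log2) for each member against zeitgeber time in hours, as limma estimates with bars of ± 1 SE. Filled red points have an adjusted p under 0.05 over all genes and open points do not. The 5 filled points are Nfil3 at ZT0 and ZT12, Bhlhe40 at ZT0 and Ciart at ZT8 and ZT16, and Dbp, Tef, Hlf and Bhlhe41 have none.

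The rhythm itself was compared between diets with a joint test of amplitude and peak. No member passed it with limma (3.58% of all genes did), and Ciart alone had an unadjusted p under 0.05. The amplitudes differed by 0.14 ± 0.15 for Dbp, 0.01 ± 0.073 for Tef and -0.01 ± 0.086 for Hlf (high fat minus control), and their peaks by 0.17 ± 0.61 h, -0.10 ± 0.31 h and -0.98 ± 1.2 h. For Dbp, Tef and Hlf alike the peak times thus differed by less than the 4 h sampling and less than the standard error of the difference.

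The fitted peaks of the members and of the core clock genes are given side by side, and differences in peak between genes were not tested. Dbp, Tef and Hlf had fitted peaks at 11.2, 12.4 and 13.8 h in the high fat diet and at 11.05, 12.5 and 14.7 h in the control diet. Hlf lay nearer to Tef with the dimmer probe sets, at 12.7 h for Hlf and 12.3 h for Tef in the high fat diet and at 13.3 and 12.4 h in the control diet. Nr1d2, the gene of REV-ERBβ, peaked at 10.4 ± 0.38 h in the high fat diet and 10.3 ± 0.44 h in the control diet. Per3 peaked at 12.5 h in the high fat diet and 13.0 h in the control diet, and Per2 at 15.1 and 14.1 h. Arntl peaked on the other side of the day, at 23.5 ± 0.43 h in the high fat diet and 23.1 ± 0.72 h in the control diet. Of 7 listed E-box controlled clock genes 5 were measured (Per1, Per2, Per3, Cry1 and Nr1d2), and all 5 passed the rhythm test in both diets, against 2.36% of all genes. Npas2 had its peak at 21.9 ± 0.48 h in the high fat diet and 23.6 ± 0.34 h in the control diet.

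**Figure D4:**
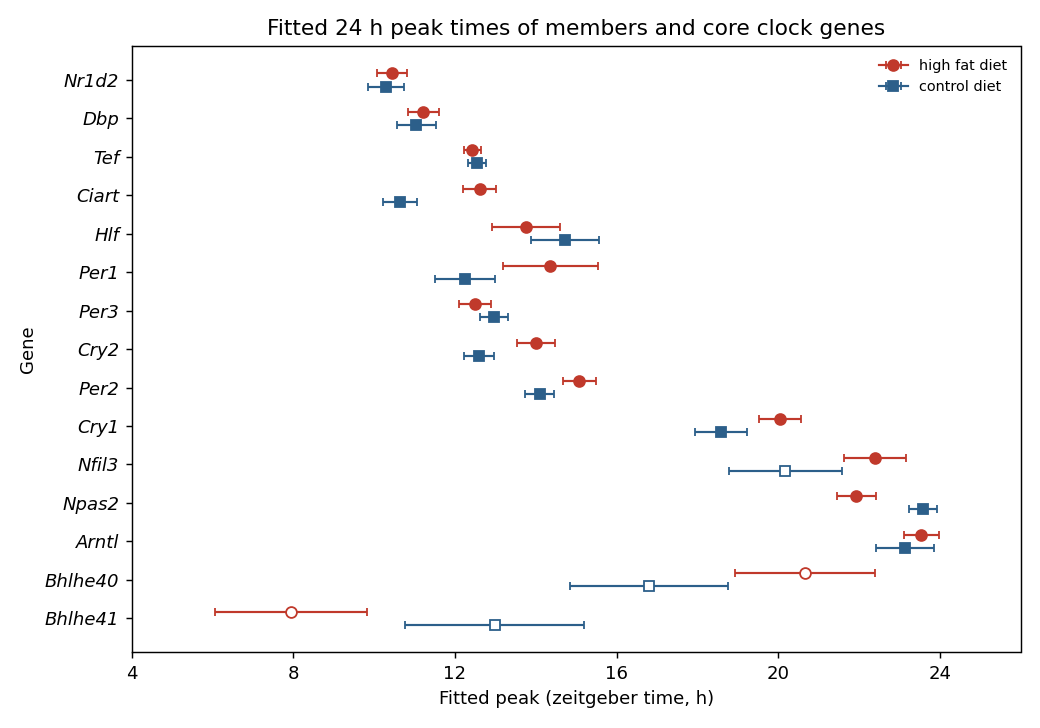
Fitted peak of the 24 h cosine in zeitgeber time (hours) with bars of ± 1 SE, for the 7 members and 8 core clock genes, high fat as red circles above control as blue squares. Filled symbols passed the rhythm test and open symbols did not. Dbp, Tef, Ciart and Hlf peak between 10.6 and 14.7 h in both diets, and Nfil3 in the high fat diet peaks near Npas2 and Arntl.

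Over the 12 group means, each from arrays of a single time point and collection day, the members' profiles were compared as a description. Dbp went with Ciart (Pearson r = 0.91) and with Tef (0.89), and less closely with Hlf (0.68). Nfil3 went against Dbp (-0.82) and less closely against Hlf (-0.59) and Tef (-0.53). It went with Bhlhe40 (0.76), and Ciart went with Tef (0.86). Among named genes outside the 7 members, the profiles most like Dbp were those of Adh1 (0.91), an alcohol dehydrogenase of retinol metabolism, Epb41l4b, Slf1 and Plbd2, each at 0.90, and the most opposite were Arntl (-0.94) and Incenp (-0.91), a scaffold of the mitotic Aurora B complex. Tef was most like Per3 (0.97), Cx3cl1 (0.96), Cry2 (0.92) and Ulbp1 (0.90), and most opposite to Ube2c (-0.98), a ubiquitin-conjugating enzyme of mitotic exit, and Cenpe (-0.93), a kinetochore motor. Hlf was most like Dxo (0.91), Nckipsd, Ddb2 and Stk35os1, and most opposite to Smap2 (-0.90) and Rasa3 (-0.89).

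Outside the members, Nfil3 was most like Txnrd1 (0.97), the cytosolic thioredoxin reductase, Pnrc1 (0.97), Lonrf3 (0.95) and Kctd4 (0.94), and most opposite to Igsf23 (-0.95) and Efna4 (-0.95). Ciart was most like Epb41l4b (0.92), Tdo2 (0.90), Cry2 (0.87) and Per1 (0.86), and most opposite to Rtl6 (-0.93) and Arntl (-0.91). Bhlhe40 was most like Nop58 (0.96), a box C/D snoRNP protein, Tnfrsf12a (0.96), the TWEAK receptor, Pmp22 (0.95) and Id3 (0.94), and most opposite to Rnf144b (-0.97) and Cyb561 (-0.94). Bhlhe41 was most like Lrp3 (0.91), Ppp1r14c (0.88), Upb1 (0.86) and Prl7c1 (0.86), and most opposite to Shroom4 (-0.85) and Fbxw14 (-0.82), over a range of group means that did not pass the time test. Epb41l4b and Igsf23 did not pass it in either diet (adjusted p = 0.0842 and 0.11 in the high fat and 0.104 and 0.079 in the control diet), nor did Lrp3, Ppp1r14c, Prl7c1 and Shroom4.

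Genes that the PAR bZIP proteins are known to drive in mouse liver, kidney or brain were examined next. Of 8 listed, 7 were measured, of which 4 differed between time points in the high fat diet (Alas1, Aldh1a1, Cyp2b10 and Pdxk) and 5 in the control diet (the same and Nr1i3), against 41.5% and 43.9% of all genes. Of the 7, 2 had a rhythm in the high fat diet (Alas1 and Pdxk) and 1 in the control diet (Pdxk), against 11.2% and 6.66% of all genes. For Pdxk, pyridoxal kinase, high fat cells gave an amplitude of 0.41 ± 0.067 peaking at 14.0 ± 0.68 h (adjusted p = 0.000343), and control cells one of 0.59 ± 0.071 peaking at 15.8 ± 0.47 h (adjusted p = 1.62e-06). It was higher in the high fat diet at ZT8 (0.50 ± 0.16, adjusted p = 0.0491) and lower at ZT16 (-0.47 ± 0.12, adjusted p = 0.0335). Alas1, the first enzyme of heme synthesis, peaked at 23.9 ± 1.1 h in the high fat diet with an amplitude of 0.23 ± 0.064 (adjusted p = 0.0432). Of the 7 D-box controlled clock genes listed, 6 were measured, and 5 passed the rhythm test in the high fat diet (Nr1d2, Per1, Per2, Per3 and Rora) and 4 in the control diet (the same without Rora), against 11.2% and 6.66% of all genes. The median amplitude was 0.23 over the 7 PAR bZIP targets in the high fat diet and 0.12 in the control diet, against 0.079 and 0.072 over all genes.

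Of 5 measured clock genes under REV-ERB and ROR control, Nfil3 among them, 4 passed the rhythm test in the high fat diet (Arntl, Cry1, Nfil3 and Npas2), against 11.2% of all genes, and 3 in the control diet (the same without Nfil3), against 6.66%. Of 7 listed genes that cycle in many mouse tissues, 6 were measured, and 4 passed it in the high fat diet (Fkbp5, Lonrf3, Tsc22d3 and Usp2) and 3 in the control diet (Fkbp5, Tsc22d3 and Wee1), against the same shares of all genes. Tsc22d3 (GILZ), a glucocorticoid response gene, cycled with an amplitude of 1.16 ± 0.14 in high fat and 0.73 ± 0.15 in control cells. It was higher in the high fat diet at ZT16 (1.46 ± 0.20, adjusted p = 0.00013) and lower at ZT20 (-0.86 ± 0.20, adjusted p = 0.036). The Lonrf3 amplitudes were 0.68 ± 0.15 in high fat cells (peak 21.4 ± 0.76 h, adjusted p = 0.00653) and 0.33 ± 0.15 in control cells, which did not pass (adjusted p = 0.338).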

How the data were processed

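Values are log2 expression from Affymetrix arrays that the authors made with RMA, per the submitters' processing notes, whose version is not given in the sources used here. RMA subtracts background, brings arrays to a common distribution and merges the probes of each probe set into 1 value. The log2 scale rests on the deposited values' range of 2.17 to 13.5. Per the labels' protocols, RNA was taken up in TRizol, an input of 25 ng was amplified over 17 cycles, and 8 µg of cDNA carried the biotin label.

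Of 45141 probe sets, 28898 have 1 gene in the platform annotation and 551 have several genes and were left out. The annotation can be old, and for 161 of the 17097 symbols no entry was found in the RefSeq gene list used. Genes of low value were kept. Scanner files were not used here, so signal over background is unknown, and precision is limited by how many arrays there are. The probe sets of Dbp (1418174_PM_at), Nfil3 (1418932_PM_at), Ciart (1435188_PM_at) and Bhlhe40 (1418025_PM_at) are their only ones.

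Tests used limma 3.58.1 (lmFit, eBayes) in R 4.3.3 with the data.table package (version 1.17.8), in a model of 12 group means (29 residual degrees of freedom) and in a 24 h cosine model per diet (35), all with Benjamini-Hochberg adjustment over 17097 genes. Both were tested on simulated data. Figures used matplotlib 3.10.9 and pandas 2.3.3 in Python 3.11.15. No pair of arrays was identical. Replicate numbers occur in every group, but the labels do not say that they pair arrays, so no block was used in the main fits. Arrays that share a number did not deviate together (mean correlation -0.03 over 198 pairs of different groups).

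The members and lists were chosen with earlier results of these data known. Named genes were the members, the 4 genes most like and the 2 most unlike each by Pearson r over the group means (members and provisional symbols left out), and up to 6 of each list. Alternatives covered probe set choice, dim genes, eBayes settings, array weights, scaling, covariates, blocks, ranks, 12 h terms, time points and single arrays. Leaving out ZT12 and subtracting the medians of the tested genes were chosen after seeing the data, as was leaving out single arrays for steps between time points.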

Additional observations from a re-analysis of the deposited data

Results flagged for a closer look

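The diet effect differed between time points by limma's joint test for Ciart (adjusted p = 0.000369), Nfil3 (0.00102) and Bhlhe40 (0.0491), as given in the report.

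The 10 probe sets of the members, each taken in every group of 4 arrays, gave 70 sets of 4 values, which share arrays. Of these, 2 held a value far from the others, a smaller share than the about 1 in 20 that chance alone gives. Dbp stood at 7.07 in control replicate 2 of ZT20, against 6.71 to 6.73 in the other 3 arrays of that group. Bhlhe41 stood at 5.73 in control replicate 2 of ZT16, against 5.51 to 5.53 in the other 3.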

How the results depend on the processing

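All counts are of the 7 members, and no other of the planned or added settings moved a count of calls by more than 1.5 times. At ZT8 the count of 1 (Ciart) became 0 with every probe set fitted (brightest or other), eBayes with a trend and robust, weights per array, subtraction of array medians, the replicate block (adjusted p = 0.0586 for Ciart) and the arrays of ZT8 alone, and 2 with the first residual component as a covariate. The replicate block changed no other call, and the labels do not say whether replicate numbers pair the arrays. At ZT12 the count of 1 (Nfil3) became 2 (with Dbp) when dim genes were left out, with array weights or with array medians subtracted, and 0 with the arrays of ZT12 alone. At ZT16 the count of 1 became 0 with the arrays of ZT16 alone. For the diet average the count of 1 became 2 without ZT8 (Ciart and Dbp, with Bhlhe40 lost at adjusted p = 0.0521), when dim genes were left out, with array medians subtracted or with the first residual component, and 0 with the medians of the tested genes subtracted, in the additive model, or without ZT12, ZT16 or ZT20. Rhythms in the high fat diet numbered 3 instead of 5 with the time points as a random block (correlation 0.37) and without ZT12, where Hlf (adjusted p = 0.0576) and Nfil3 were lost. On ranks, Hlf in the control diet was lost (0.0958). The rhythm difference, 0 in the report, became 2 with the first residual component (Bhlhe40, Nfil3) and 1 with 12 h terms, where Ciart passed (adjusted p = 0.00193) with an amplitude difference of -0.0596 in place of 0.0105. Leaving out each array in turn gave counts of 0 to 2 at ZT0 and ZT12, 0 to 1 at ZT8, 1 to 1 at ZT16, 0 to 0 at ZT4 and ZT20, 0 to 2 for the average, 2 to 3 for diet by time, 6 to 6 for time in both diets, 5 to 5 and 4 to 4 for rhythms in the high fat and control diets, and 0 to 0 for the rhythm difference. With the medians of the tested genes subtracted, 1320 of 2590 calls over all genes at ZT12 were higher in the high fat diet, against 2327 of 3086 as deposited. The causes of these changes were not tested, and groups of 2 to 4 arrays limit every diet comparison.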
